A study of Mus musculus with 95 samples.

Results

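The genes described here make cholesterol, control its synthesis, or move and remove it. They are 30 named genes of the 39179 in the deposited cortex table, chosen by name: 6 control genes, 8 of the mevalonate and isoprenoid steps, 3 of the squalene and lanosterol steps, 9 of the steps after lanosterol, and 4 of transport and turnover. All 30 passed the filter on low counts in every fit. The libraries are messenger RNA of the cerebral cortex of heterozygous knock-in mice, which carry 1 Htt (huntingtin) allele with a set CAG repeat length beside 1 normal allele, and of wild-type mice, which the series describes as littermate controls. All animals were C57BL/6, of both sexes, at 6 or 10 months of age. The lines are Q20, Q50, Q92 and Q140, named for CAG lengths of 20, 50, 92 and 140. Wild types were caged with Q20 mice or with Q50 mice, and Q92 and Q140 mice were caged apart from wild types. Each line and each wild-type group had 8 libraries per age (4 female, 4 male) except Q140 at 10 months with 7. The labels do not say that each library came from a separate animal. Each p-value therefore sets a difference against the spread between the libraries of its own fit. Whether that is the spread between animals is not known.

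The brain makes its own cholesterol, because lipoproteins of the blood do not cross the blood-brain barrier. Acetyl-CoA is built into mevalonate, then into isoprenoid units, squalene and lanosterol, and lanosterol is trimmed to cholesterol. The SREBP-2 transcription factor (gene Srebf2) switches these enzymes on together when sterol in the endoplasmic reticulum is low: Scap escorts it to the Golgi, and Insig1 and Insig2 hold both back. In the adult brain astrocytes supply much of the cholesterol, on particles that carry ApoE, and neurons clear it through Cyp46a1, which makes 24-hydroxycholesterol. Lowered cholesterol synthesis has been described in striatum and cortex of Huntington's disease models, and the comparisons below ask whether these genes differed with the knock-in allele, its CAG length and age.

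The promoters of 4 members are shown, chosen for the results of these genes below. No result was tested against the sequences. Hmgcs1 and Tm7sf2 (synthesis) were called in 1 line, Abca1 (efflux) and Cyp46a1 (removal) moved in opposite directions in the same line, and Hmgcs1 is the gene the other enzymes are compared with. Each line is the 180 bases before the annotated RefSeq start on the gene's own strand (GRCm38.p6), and capitals mark matches on either strand to the sterol regulatory element TCACCCCAC, the CCAAT box and the GC box GGGCGG.
Hmgcs1, chr13:119690171-119690350, plus strand: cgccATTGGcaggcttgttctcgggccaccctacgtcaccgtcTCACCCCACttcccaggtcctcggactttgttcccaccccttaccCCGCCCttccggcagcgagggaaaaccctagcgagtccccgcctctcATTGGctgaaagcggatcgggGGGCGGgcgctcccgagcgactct
Tm7sf2, chr19:6067851-6068030, minus strand: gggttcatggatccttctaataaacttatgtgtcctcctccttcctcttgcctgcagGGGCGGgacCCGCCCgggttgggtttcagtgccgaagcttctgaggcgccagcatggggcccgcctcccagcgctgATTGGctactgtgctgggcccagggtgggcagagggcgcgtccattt
Cyp46a1, chr12:108334136-108334315, plus strand: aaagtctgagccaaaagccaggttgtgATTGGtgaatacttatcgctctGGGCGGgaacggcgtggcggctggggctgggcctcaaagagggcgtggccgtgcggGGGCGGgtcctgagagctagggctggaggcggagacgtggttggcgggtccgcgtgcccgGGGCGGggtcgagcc
Abca1, chr4:53159896-53160075, minus strand: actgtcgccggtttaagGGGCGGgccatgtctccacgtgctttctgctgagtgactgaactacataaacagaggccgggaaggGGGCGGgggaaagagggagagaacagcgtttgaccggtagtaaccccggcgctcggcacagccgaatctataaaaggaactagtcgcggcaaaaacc

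RefSeq promoter windows of 300 bases (250 before the start and 50 after) were matched for 26 of the 30 members, and Fdps, Fdft1, Sqle and Stard4 had no entry. The element TCACCCCAC was found in 1 of the 26, Hmgcs1, where it begins 137 bases before the start, and in 0.614% of all 27025 genes with a window. With its middle base left free (TCACNCCAC) it was again found only in Hmgcs1 among the 26, and in 1.44% of genes. The CCAAT box was found in 21 of the 26 members (80.8%) and in 41.1% of genes, and the GC box in 22 members (84.6%) and in 38.2% of genes. TCACCCCAC is 1 of the sequences that TCACNCCAC matches, so the first search is contained in the second. A match describes these letters in this window, and its absence says nothing of the factor.

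The 30 members were all expressed in cortex, over a wide range of levels per length. In FPKM (fragments scaled by gene length and library depth by the authors), Apoe, the sterol carrier of the brain, was highest at a median of 789 over 95 libraries, with libraries from 497 to 1124. Hmgcs1, the cytosolic synthase that makes HMG-CoA, followed at a median of 95.3 FPKM, and Cyp46a1 at 77.3 FPKM. Msmo1, a C4-demethylase of late sterols, stood at 48.6 FPKM and Srebf2 at 40.9 FPKM. The lowest were Abca1, the pump that loads cholesterol onto ApoE, at 5.74 FPKM and Lbr, a sterol C14-reductase that also anchors chromatin at the nuclear envelope, at 4.43 FPKM. Tm7sf2, the other C14-reductase, lay above Lbr at a median of 12.7 FPKM.

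**Figure D1:**
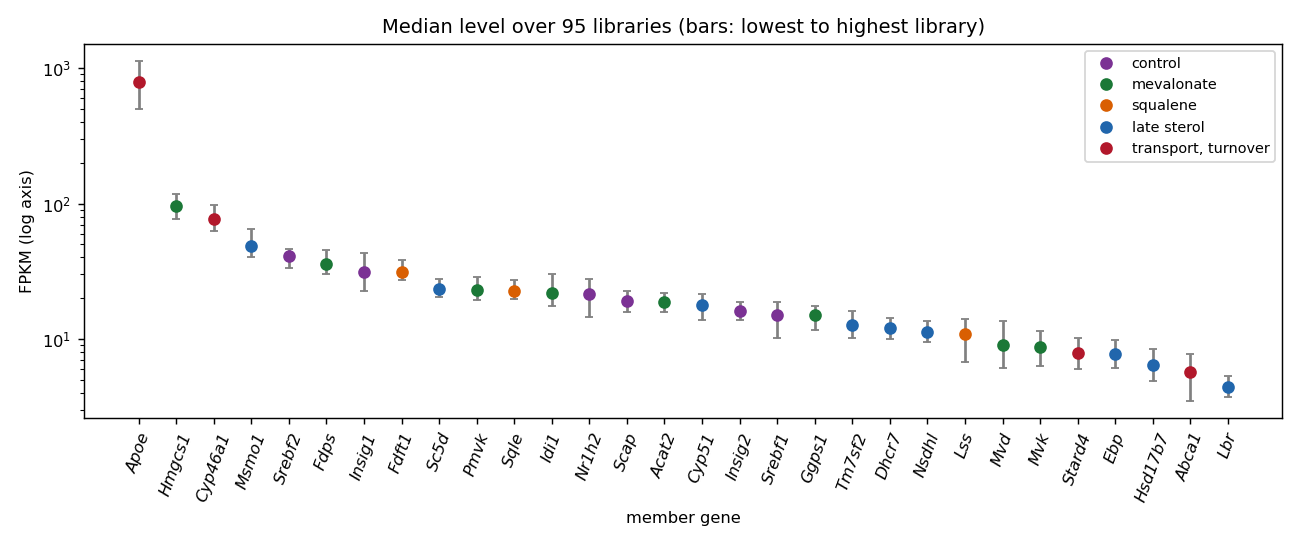
Median FPKM (log axis) of the 30 members over 95 libraries, coloured by role, with bars from the lowest to the highest library. Apoe stands highest at 789 FPKM and Lbr lowest at 4.43 FPKM.

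The members differed in how much they spread within a group of line, age and sex. Mvd, which decarboxylates mevalonate diphosphate, spread most, with a coefficient of variation of 12.4%, followed by Apoe at 10.8% and Cyp51, the lanosterol demethylase, at 10.4%. Cyp46a1 spread least, at 4.86%, so a difference of a given size was easier to see in it. Over all libraries the highest level of a member was between 1.36 times (Dhcr7, the reductase that makes cholesterol from 7-dehydrocholesterol) and 2.23 times (Mvd) its lowest in CPM (counts scaled to library depth after TMM normalisation).

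Library make-up varied in ways that touch some members. In 2 libraries at 6 months, a Q50 female and a Q92 male, mitochondrial genes took 14.7% and 13.6% of counts, against 9.08% at the lowest. These 2 had the lowest Abca1 of all 48 libraries of that age (36.3 and 37.5 CPM), the lowest Srebf2 but for each other (176 and 171 CPM) and the highest Cyp46a1 (208 and 190 CPM). Marker genes of the cortical excitatory neuron were high in every group (12 genes, none at 0, summed level 4355 to 5696 CPM). Markers of striatal projection neurons, which lie next to cortex, were also present in every library (15 genes, none at 0) and differed between groups: at 6 months their mean log2 CPM was 4.64 ± 0.16 in Q92 and 4.69 ± 0.25 in Q140, against 6.02 ± 0.26 and 5.49 ± 0.22 in wild types caged with Q20 and with Q50 (SD, n = 8 each).

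At 6 months 2 of the 30 members were higher in Q92 cortex than in wild type, and none was called in Q20, Q50 or Q140. A call is an adjusted p under 0.05 in edgeR's quasi-likelihood test, adjusted over all genes tested. For Q92 and Q140 the reference was the average of the 2 wild-type groups, and for Q20 and Q50 it was the wild types of their own cages. The 2 of 30 members in Q92 stand beside 7.83% of all genes called in that comparison, so the share is near the background.

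Tm7sf2, the sterol C14-reductase, ranged in Q92 from 16.0 to 20.4 CPM with a median of 18.8. In wild types caged with Q20 it ranged from 14.96 to 16.8 CPM (median 15.5), and in those caged with Q50 from 15.9 to 19.1 CPM (median 16.8). The Q92 libraries lay above the wild-type mean in 7 of 8, and the groups overlapped. The log2 difference was 0.17 ± 0.041 (SE; edgeR adjusted p = 0.00384), with means of 18.5 ± 1.53 CPM (SD, n = 8) and 16.4 ± 1.03 CPM (SD, n = 16). In the other lines Tm7sf2 was not called, at 18.3 ± 1.6 CPM in Q50 and 17.6 ± 0.7 CPM in Q140 (SD, n = 8 each).

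Hmgcs1, the HMG-CoA synthase, ranged in Q92 from 291 to 366 CPM (median 318). In wild types it ranged from 266 to 315 CPM (median 291) when caged with Q20 and from 256 to 328 CPM (median 300.2) when caged with Q50. All but 1 of the 8 Q92 libraries lay above the wild-type mean, and the groups overlapped. The difference was 0.12 ± 0.037 (log2, SE; adjusted p = 0.040), from 294 ± 18.6 CPM in wild type to 319 ± 23.7 CPM in Q92 (SD). It is close to the threshold: the call stood in 8 of 18 other settings, and leaving out any of 6 libraries ended it. They were Q92 female replicates 2 and 4 and male replicate 1 (adjusted p = 0.0958, 0.0578 and 0.123), wild-type males 1 and 3 caged with Q20 (0.0541 and 0.0528) and wild-type female 3 caged with Q50 (0.0540). Idi1, the isomerase of isoprenoid units, had a log2 difference of 0.15 ± 0.052 and did not pass (adjusted p = 0.0701).

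The striatal marker level differed between Q92 and wild type at this age. The striatal marker list summed to 710 to 863 CPM in Q92 and to 959 to 1931 CPM in wild type, with no overlap. With that level as a covariate the difference of Hmgcs1 was -0.014 (adjusted p = 0.967) and that of Tm7sf2 was 0.035 (adjusted p = 0.936), and line and striatal level cannot be told apart here. Against wild types caged with Q50 alone neither was called (0.11 with adjusted p = 0.149 and 0.12 with adjusted p = 0.164). Hmgcs1 was not called against those caged with Q20 alone either (0.12, adjusted p = 0.0744), with only the compared groups in the fit (0.12, 0.0590) or with the L code of the label as a factor (0.12, 0.0911), and in neither sex alone (0.270 in females and 0.297 in males). Tm7sf2 was called in 15 of the 18 settings. In bulk tissue, fewer cells of a type and less RNA per cell cannot be told apart either.

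The other fixed members at 6 months showed small differences that did not pass. Sqle, the squalene epoxidase that sets the pace of the later steps, was 63.8 ± 4.13 CPM in Q92 against 60.7 ± 3.68 CPM in wild type (log2 difference 0.071 ± 0.036, edgeR adjusted p = 0.269). Its largest difference was in Q50, at 65.8 ± 4.21 against 61.3 ± 2.91 CPM (0.10 ± 0.042, adjusted p = 0.801). Srebf2 differed by between -0.0012 and 0.051 over the 4 lines, and Cyp46a1 by between 0.0069 and 0.062. Apoe was 748 ± 63.8 CPM in Q140 against 813 ± 61.4 CPM in wild type, a log2 difference of -0.12 ± 0.053 (adjusted p = 0.230).

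In the lines with no call at 6 months the tools gave the same count. In Q20 none of the 30 members had even an unadjusted p under 0.05, beside 0.0169% of genes called. In Q50 5 members did, beside 0.0226% of genes called, and in Q140 3 did, beside 3.52% of genes called. DESeq2 and limma voom also called 0 members in these 3 lines. The standard errors of the members in Q140 lay between 0.031 and 0.069 on the log2 scale.

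At 10 months 3 members were lower in Q20, 1 was higher and 1 lower in Q92, and none was called in Q50 or Q140. In Q20 the 3 of 30 stand beside 4.35% of all genes called, and in Q92 the 2 of 30 stand beside 0.853%.

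In Q92 Abca1, the cholesterol efflux pump, rose and Cyp46a1, the enzyme that hydroxylates cholesterol for removal, fell. Abca1 ranged from 56.3 to 79.4 CPM in Q92 (median 66.7), from 43.5 to 55.0 CPM in wild types caged with Q20 (median 52.4) and from 54.7 to 72.8 CPM in those caged with Q50 (median 59.0). All 8 Q92 libraries lay above the mean of all wild types and above every wild type caged with Q20, but they overlapped those caged with Q50. The log2 difference was 0.26 ± 0.053 (edgeR adjusted p = 0.00851), from 56.1 ± 6.90 to 66.9 ± 7.97 CPM (SD).

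Cyp46a1 ranged from 132 to 153 CPM in Q92 (median 141), from 146 to 176 CPM in wild types caged with Q20 (median 167) and from 142 to 161 CPM in those caged with Q50 (median 149). All 8 Q92 libraries lay below the wild-type mean, and 4 lay below every wild-type library. The difference was -0.15 ± 0.032 on the log2 scale (edgeR adjusted p = 0.0150), from 158 ± 10.7 to 142 ± 8.31 CPM (SD). Hmgcs1 (-0.055 ± 0.050, adjusted p = 0.653), Sqle (-0.0032 ± 0.050, 0.984), Srebf2 (-0.069 ± 0.045, 0.502) and Apoe (0.013 ± 0.079, 0.958) did not pass in Q92 at this age.

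The wild-type groups themselves differed in both of these genes at 10 months. Between wild types caged with Q20 and with Q50, 3 of 30 members were called, beside 7.03% of all genes, and at 6 months none was, beside 0.0903%. At 6 months 2 members had an unadjusted p under 0.05, and DESeq2 and limma voom also called 0. At 10 months Cyp46a1 was higher with Q20 than with Q50 (165 ± 8.65 against 150 ± 6.31 CPM; log2 difference 0.14 ± 0.036, edgeR adjusted p = 0.0146). Abca1 was lower (51.4 ± 3.89 against 60.8 ± 6.08 CPM; -0.24 ± 0.062, adjusted p = 0.0141), as was Acat2, the cytosolic thiolase that starts the pathway (40.7 ± 2.79 against 45.4 ± 1.57 CPM; -0.16 ± 0.038, adjusted p = 0.0101). Against wild types caged with Q20 alone, 4 members were called in Q92 and the differences of Abca1 and Cyp46a1 were 0.38 and -0.22. Against those caged with Q50 alone no member was called, and the same differences were 0.14 (adjusted p = 0.649) and -0.075 (adjusted p = 0.698).

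Other tissue markers moved with these groups. At 10 months the meningeal list (12 genes, none at 0) summed to 102 to 254 CPM in Q92, 69.0 to 145 CPM in wild types caged with Q20 and 114 to 175 CPM in those caged with Q50. The endothelial list (10 genes, none at 0) summed to 370 to 429, 320 to 380 and 375 to 409 CPM in the same order. With the striatal level as a covariate the Q92 differences were 0.27 for Abca1 (adjusted p = 0.00134) and -0.15 for Cyp46a1 (0.00473), and with the myelin level as a covariate 0.24 (0.0592) and -0.15 (0.0458). The part of the meningeal and endothelial lists was not tested. With the Q92 and wild-type libraries alone in the fit neither gene passed (adjusted p = 0.0619 and 0.0757), and the differences were then 0.26 and -0.15. The call of Abca1 ended without Q92 female replicate 4 (adjusted p = 0.0653), and that of Cyp46a1 without Q92 female replicate 1, 2 or 4 (0.0694, 0.0576 and 0.0806). In males alone the differences were 0.16 (adjusted p = 0.750) and -0.10 (0.687).

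In Q20 at 10 months Pmvk and Mvk, the kinases that phosphorylate mevalonate in turn, and Cyp46a1 were lower than in wild types of the same cages. Pmvk ranged from 23.6 to 28.4 CPM in Q20 (median 25.2) and from 25.6 to 32.9 CPM in wild type (median 28.1), and all 8 Q20 libraries lay below the wild-type mean. Its log2 difference was -0.17 ± 0.042 (edgeR adjusted p = 0.0209). Mvk ranged from 10.4 to 14.8 CPM in Q20 (median 13.1) and from 12 to 17.7 CPM in wild type (median 15.1), again with all 8 below the wild-type mean (-0.20 ± 0.060, adjusted p = 0.0418). Cyp46a1 was 152 ± 7.99 CPM against 165 ± 8.65 CPM (SD, n = 8 each), a difference of -0.12 ± 0.036 (adjusted p = 0.0432). The groups overlapped for all 3 genes.

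These 3 calls in Q20 were close to the threshold, and leaving out 1 library left between 0 and 7 members called. None was left in females alone, where the differences were -0.13, -0.045 and -0.080 for Pmvk, Mvk and Cyp46a1, and all 3 held in males alone, at -0.21, -0.36 and -0.17. None held without the libraries of this age that carry no D code in their label (9 lack it over both ages). In this comparison those were Q20 female replicate 1 and Q20 male replicate 1. With the L code of the label as a factor none held either. The striatal list summed to 767 to 2578 CPM in Q20 and 745 to 947 CPM in its wild types, and none of the 3 passed with that level as a covariate (adjusted p = 0.725 for each). Compared with both wild-type groups the difference of Cyp46a1 was -0.053 (adjusted p = 0.369). Hmgcs1 (-0.062 ± 0.057, adjusted p = 0.568), Sqle (-0.040 ± 0.058, 0.734), Srebf2 (-0.061 ± 0.051, 0.519) and Apoe (-0.025 ± 0.091, 0.906) did not pass.

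In Q50 and Q140 no member was called at 10 months, beside 0.0561% and 1.20% of all genes. In Q50 1 member had an unadjusted p under 0.05, Insig1, and DESeq2 and limma voom called 0. In Q140 8 members had an unadjusted p under 0.05, DESeq2 called 0 and limma voom called 1, Cyp46a1. Cyp46a1 was 147 ± 4.81 CPM in Q140 (n = 7) against 158 ± 10.7 CPM in wild type, with all 7 libraries below the wild-type mean (-0.096 ± 0.033, edgeR adjusted p = 0.160). That mean joins 165 ± 8.65 CPM in wild types caged with Q20 and 150 ± 6.31 CPM in those caged with Q50. Against wild types caged with Q20 alone 3 members were called in Q140, and against those caged with Q50 alone 0 were. Hmgcs1 was 306 ± 17.6 against 329 ± 29.7 CPM (-0.10 ± 0.052, adjusted p = 0.394). Sqle (-0.039 ± 0.053, 0.823), Srebf2 (-0.044 ± 0.047, 0.757) and Apoe (-0.070 ± 0.083, 0.789) differed by less than 1 standard error from 0.

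**Figure D2:**
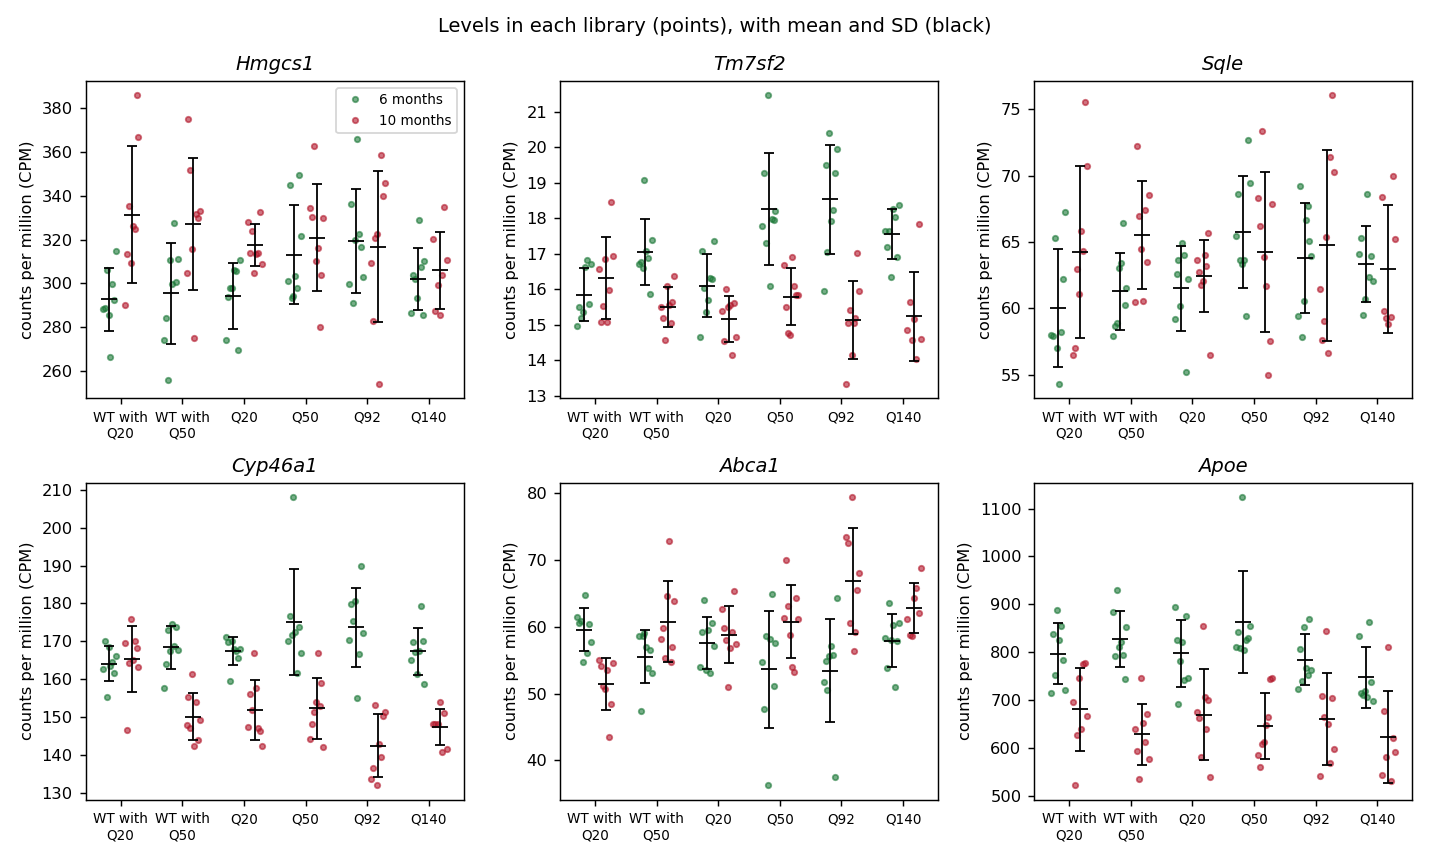
CPM of 6 members in each library (points) by line and age, with mean and SD in black. Cyp46a1 is lowest in Q92 at 10 months (142 ± 8.31 CPM), and Abca1 is highest there (66.9 ± 7.97 CPM) with wild types caged with Q20 lowest (51.4 ± 3.89 CPM).

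When every line was set against its wild types at both ages, 8 comparisons in all, 7 of 240 member tests were called, in 6 different members, and 24 members were never called. Members with a positive difference at 6 months numbered 19 in Q20, 24 in Q50, 21 in Q92 and 23 in Q140 of 30, beside 49.9% to 52.2% of all genes. At 10 months they numbered 5, 13, 8 and 6, beside 49.5% to 50.6% of all genes. The median over the members was 0.0447 at 6 months and -0.0349 at 10 months in Q92, and 0.0308 and -0.0531 in Q140, where the medians over all genes lay between -0.0010 and 0.0044. In Q20 the median over the members was 0.004 at 6 months and -0.0583 at 10 months, and in Q50 it was 0.0476 and -0.0038. The lines share wild types in these comparisons and some members varied together within groups, so the signs are not separate observations.

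**Figure D3:**
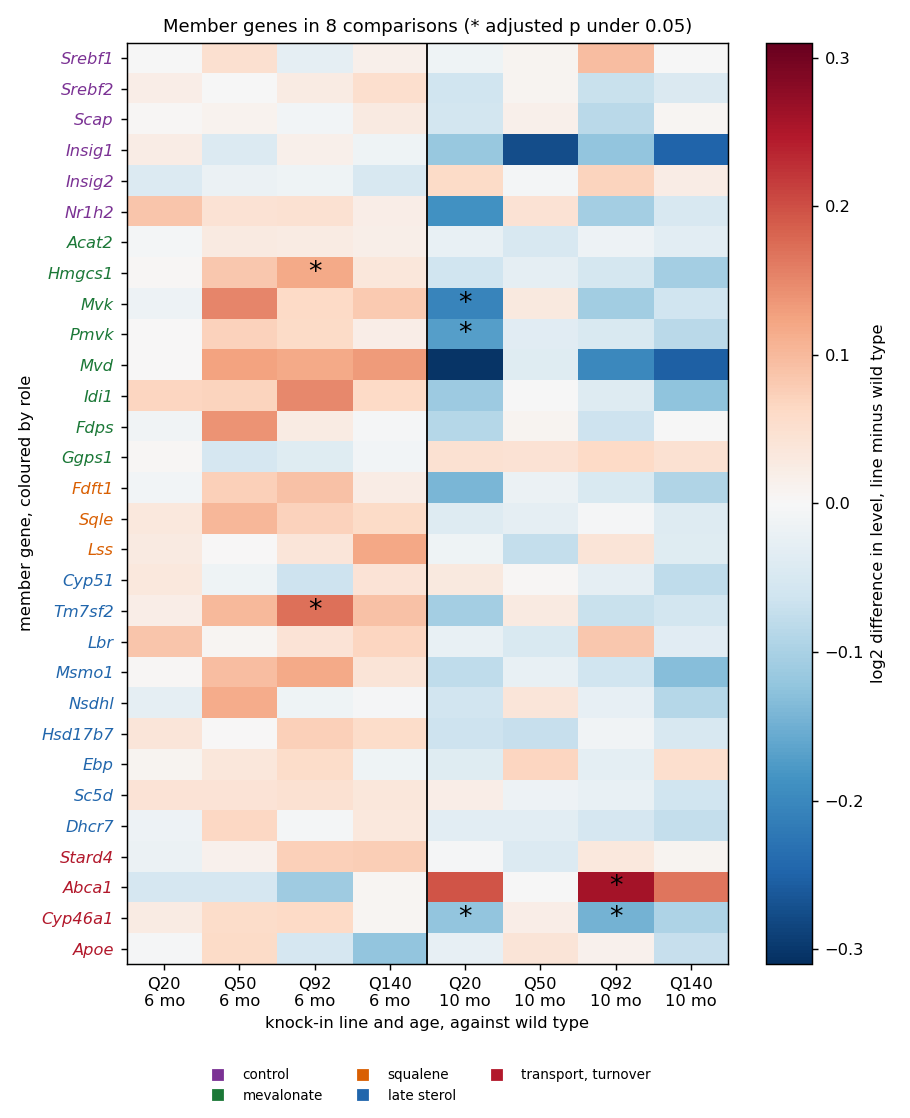
Log2 difference of each member between a line and its wild types, at 6 months (left) and 10 months (right), with stars for an adjusted p under 0.05. Only 7 of the 240 cells are starred. Most cells are red at 6 months and blue at 10 months in all 4 lines, with Q50 at 10 months the most even (13 of 30 positive).

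Across the knock-in libraries no member had a slope with CAG length that passed, beside 1.78% of genes called at 6 months and 0.891% at 10 months. DESeq2 and limma voom called 0 at both ages, and 2 and 0 members had an unadjusted p under 0.05. The slopes lay between -0.12 and 0.096 (log2 per 100 CAG repeats) at 6 months and between -0.081 and 0.10 at 10 months, with standard errors of 0.028 to 0.067 and 0.029 to 0.076. The lowest slope at 6 months was that of Apoe (-0.12 ± 0.053, edgeR adjusted p = 0.385). At 10 months Cyp46a1 had -0.056 ± 0.031 (adjusted p = 0.466), Hmgcs1 -0.045 ± 0.042 (0.698), Sqle 0.011 ± 0.047 (0.948), Srebf2 -0.032 ± 0.038 (0.776) and Apoe -0.071 ± 0.075 (0.739). Htt itself, the gene that carries the repeat, fell with CAG length at 10 months (-0.22 ± 0.039, adjusted p = 0.00268).

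Most calls among the members were between ages in wild type. At 10 months 11 of the 30 members were higher than at 6 months, beside 9.56% of all genes, and 5 were lower, beside 13.4%. The 16 called make 53.3% of the members, beside 23.0% of all genes. Of the 20 synthesis enzymes 9 were higher and none lower. In females alone 7 members were called and in males alone 2, Apoe and Nr1h2. The ages were separate libraries, so age and anything else that set the cohorts apart cannot be told apart.

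Tissue markers differed between these wild-type libraries as well. Of the 15 striatal markers 13 were lower at 10 months and none higher. Their summed level went from 1298 to 1931 CPM at 6 months to 745 to 947 CPM at 10 months in wild types caged with Q20, and from 959 to 1272 to 814 to 1997 CPM in those caged with Q50. All 6 tested markers of forebrain cholinergic neurons (none at 0, and 2 under 0.1 CPM in the older wild types caged with Q20) were lower at 10 months. They summed to 13.7 to 29.3 CPM at 6 months and 1.13 to 2.60 CPM at 10 months in wild types caged with Q20, and to 7.06 to 18.1 and 2.58 to 28.1 CPM in those caged with Q50. With the striatal level as a covariate, a setting chosen after seeing the data, 4 of the 16 calls were left. They were Apoe (-0.27, edgeR adjusted p = 0.00108), Nr1h2 (-0.26, 0.000815), Cyp46a1 (-0.10, 0.00896) and Stard4 (0.13, 0.0388). No synthesis enzyme was called in that fit: Hmgcs1 had 0.10 (adjusted p = 0.0630) and Idi1 0.14 (0.0757). Age and striatal level cannot be told apart for the enzymes, and the part of the cholinergic list was not tested.

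Among the enzymes of the mevalonate steps, Hmgcs1 rose in wild type from 294 ± 18.6 CPM at 6 months to 329 ± 29.7 CPM at 10 months (SD, n = 16 each), with 14 of 16 libraries above the younger mean (log2 difference 0.16 ± 0.036, edgeR adjusted p = 0.000693). Idi1 rose from 61.7 ± 6.93 to 70.4 ± 8.84 CPM (0.19 ± 0.049, adjusted p = 0.00294). Fdps, which makes farnesyl diphosphate, rose by 0.11 ± 0.034 (adjusted p = 0.00821). Acat2 rose by 0.082 ± 0.029 (adjusted p = 0.0326), close to the threshold. Fdft1, squalene synthase, rose from 85.5 ± 4.70 to 93.2 ± 5.99 CPM, with 15 of 16 above the younger mean (0.12 ± 0.033, adjusted p = 0.00510). Sqle was 60.7 ± 3.68 and 64.9 ± 5.28 CPM and did not pass (0.092 ± 0.036, adjusted p = 0.0538).

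Among the late steps Hsd17b7, a keto-reductase, rose by 0.14 ± 0.050 (edgeR adjusted p = 0.0296) and Sc5d, a desaturase, by 0.094 ± 0.031 (0.0171). Lbr and Nsdhl, a dehydrogenase of C4-demethylation, differed by 0.094 ± 0.034 and 0.091 ± 0.034 and passed narrowly (adjusted p = 0.0345 and 0.0422). Insig1, which is itself an SREBP target and restrains the pathway, rose by 0.16 ± 0.055 (0.0248). Stard4, a carrier of cholesterol between membranes, rose from 37.0 ± 2.74 to 42.0 ± 3.91 CPM (0.18 ± 0.041, adjusted p = 0.000853).

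The members that were lower at 10 months lay outside the synthesis enzymes. Apoe fell from 813 ± 61.4 to 655 ± 78.7 CPM, with all 16 older libraries below the younger mean (-0.32 ± 0.055, edgeR adjusted p = 1.12e-05). Nr1h2, the sterol-sensing receptor LXR-beta, fell from 39.1 ± 2.80 to 33.1 ± 5.11 CPM (-0.25 ± 0.051, adjusted p = 9.94e-05). Scap (-0.10 ± 0.028, adjusted p = 0.00415), Srebf1, which drives fatty acid genes (-0.17 ± 0.049, 0.00862), and Cyp46a1 (-0.083 ± 0.025, 0.0115) also fell. Cyp46a1 differed between cages: its mean log2 level changed by 0.010 in wild types caged with Q20 and by -0.17 in those caged with Q50. For the other 15 called members both cages had the sign of the call, but for some the sizes were far apart. Acat2 changed by 0.0053 in wild types caged with Q20 and by 0.17 in those caged with Q50. In the same order Nr1h2 changed by -0.091 and -0.42, and Srebf1 by -0.28 and -0.0485. The calls were made from the libraries of these same cages, so a shared sign is largely set by that selection. It is not a separate test of the calls.

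In the knock-in lines the age differences are given as mean log2 differences with no test of their own. The members named here were called in wild type, so their wild-type values were selected for size. Hmgcs1 was higher at 10 months by 0.18 and 0.15 in wild types caged with Q20 and with Q50, by 0.11 in Q20, 0.035 in Q50 and 0.017 in Q140, and differed by -0.017 in Q92. Idi1 differed by 0.28 and 0.093 in the wild types, and by 0.11, 0.025, -0.0028 and -0.0092 in Q20, Q50, Q92 and Q140. Insig1 differed by 0.091 and 0.23 in the wild types and by between -0.078 and 0.021 in the 4 lines. Of the 11 members higher in wild type, 4 (Fdps, Nsdhl, Hsd17b7 and Stard4) had that sign in all 4 lines. All 5 members that were lower had the same sign in all 4 lines, and Apoe fell by -0.26 to -0.42 there.

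**Figure D4:**
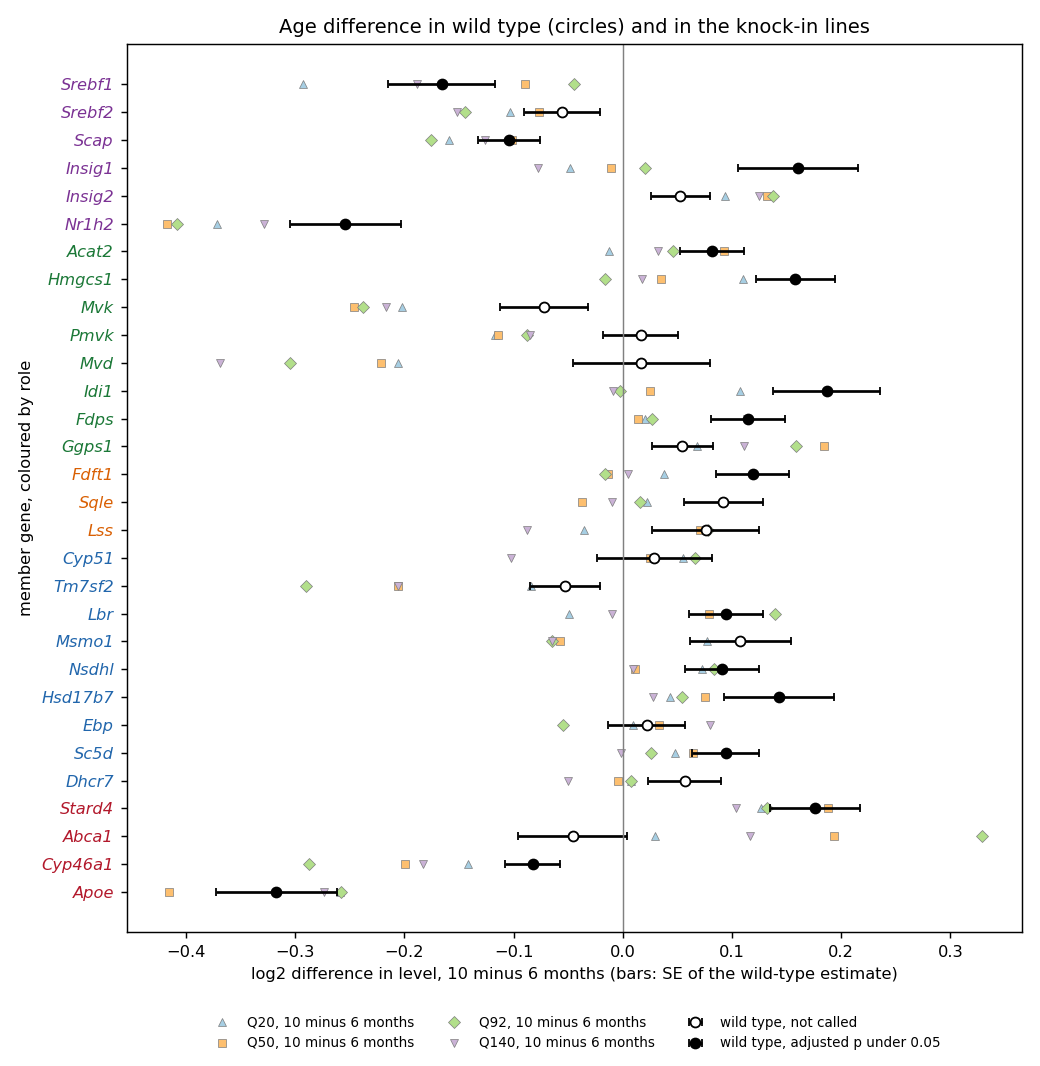
Log2 difference between 10 and 6 months for each member, in wild type (circles with SE, filled where called) and as mean differences in the 4 lines (coloured symbols). For Hmgcs1, Idi1 and Insig1, all called in wild type, all 4 lines lie left of the wild-type value, and no interaction passed for them. Apoe lies between -0.26 and -0.42 in every line.

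Tested directly, the age difference departed from that of wild type for 3 of 30 members in Q92, beside 9.63% of all genes called, so the share is near the background. The interaction (line against wild type at 10 months minus the same at 6 months, log2) was -0.20 ± 0.044 for Cyp46a1 (edgeR adjusted p = 0.000946), -0.24 ± 0.055 for Tm7sf2 (0.00225) and 0.37 ± 0.086 for Abca1 (0.00239). Cyp46a1 had a mean of 174 ± 10.4 CPM in Q92 at 6 months and 142 ± 8.31 CPM at 10 months. Tm7sf2 went from 18.5 ± 1.53 to 15.1 ± 1.1 CPM, and Abca1 from 53.4 ± 7.7 to 66.9 ± 7.97 CPM. All 3 calls stood when any 1 library was left out, and without the 2 libraries of high mitochondrial share the values were -0.19, -0.23 and 0.31. In males alone none of the 3 passed, with adjusted p of 0.275 to 0.451. No setting used 1 wild-type group alone as the reference of this test. In wild types caged with Q20, in those caged with Q50 and in Q92, mean log2 Cyp46a1 changed with age by 0.010, -0.17 and -0.29. Tm7sf2 changed by 0.04, -0.14 and -0.29, and Abca1 by -0.21, 0.13 and 0.33. In Q20, Q50 and Q140 Cyp46a1 changed by -0.14, -0.20 and -0.18, and Tm7sf2 by -0.084, -0.21 and -0.21. Abca1 changed there by 0.029, 0.19 and 0.12.

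Marker lists had interactions in the same fit. Of the 15 striatal markers 11 passed with a positive interaction, as did all 6 cholinergic markers tested and 6 of 12 meningeal markers. The striatal sum was 710 to 863 CPM at 6 months and 738 to 1231 CPM at 10 months in Q92, beside the sums of the wild types given above. The cholinergic sum was 1.27 to 2.80 CPM at 6 months and 1.39 to 27.5 CPM at 10 months in Q92. With the striatal level as a covariate none of the 3 members passed: Cyp46a1 had -0.18 (edgeR adjusted p = 0.0661), Tm7sf2 -0.19 (0.158) and Abca1 0.27 (0.192). With the myelin level as a covariate Abca1 did not pass (0.28, adjusted p = 0.0560), and the other 2 did.

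In the other lines no interaction passed for the members. The background was 0.693% of genes in Q20, 0% in Q50 and 1.79% in Q140, and 7, 1 and 7 members had an unadjusted p under 0.05. DESeq2 called 0, 0 and 1 members and limma voom called 3, 0 and 0. The member nearest to the threshold was Mvd in Q140, at -0.38 ± 0.113 (edgeR adjusted p = 0.0536). For Hmgcs1 the interaction was -0.17 ± 0.063 in Q92 (adjusted p = 0.0727) and -0.14 ± 0.065 in Q140 (0.295), so its age difference was not shown to depart from that of wild type in these lines.

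Within groups, some of the synthesis genes varied with Hmgcs1 from library to library. Each library was expressed as its deviation from the mean of its line, age and sex, and Hmgcs1 was correlated with every other gene tested at each age, with p from 100000 permutations within groups, adjusted over all genes. At 6 months (48 libraries) 6 of the other 29 members were positively related, beside 0.0452% of all genes, and none negatively, beside 0.0169%. At 10 months (47 libraries) 13 were positively related, beside 1.08%, and none negatively, beside 0.286%. All 6 of the younger age were positive at both. Of the other 19 synthesis enzymes 5 passed at 6 months, 11 at 10 months and 8 at neither age. These counts and the adjusted p-values in the next paragraphs are those of Pearson's r. The adjusted p depends on how many genes have a small p at that age, so the counts cannot be compared between ages. Sc5d at 6 months (r = 0.685) and Dhcr7 at 10 months (r = 0.687) both had a permutation p of 5e-05. Their adjusted p was 0.0738 and 0.0202. By Spearman's rho at 6 months Insig1 did not pass (permutation adjusted p = 0.0886) and Sc5d did (0.0177, against 0.0738 by r). Nsdhl at 10 months passed by r (0.0409) and not by rho (0.0633).

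The members most like Hmgcs1 were Idi1, Msmo1 and Sqle. Pearson's r with Idi1 was 0.834 at 6 months (Spearman's rho 0.848) and 0.845 at 10 months (rho 0.827). With Msmo1 it was 0.799 and 0.856 (rho 0.781 and 0.818), and with Sqle 0.745 and 0.868 (rho 0.723 and 0.872). Each of these 6 had a permutation p of 1e-05, the smallest the permutations can give, and adjusted p of 0.0295 at 6 months and 0.0105 at 10 months. Without the 2 libraries farthest from the median of Hmgcs1, r stayed between 0.768 and 0.836 for these 3 genes. With the L code of the label also taken out it was between 0.730 and 0.842.

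The other members ranged from a close relation to none, inside and outside the synthesis steps. Insig1 had r = 0.636 at 6 months and 0.821 at 10 months (rho 0.616 and 0.800), with a permutation adjusted p of 0.0483 and 0.0105. Stard4 had 0.478 and 0.798 (permutation adjusted p = 0.249 and 0.0105). Among the enzymes, Dhcr7 had 0.0416 and 0.687 (permutation adjusted p = 0.994 and 0.0202), and whether the ages differ was not tested. Mvk (0.209 and 0.0968), Ebp (0.0791 and 0.168) and Lbr (0.220 and -0.0319) passed at neither age. Srebf2, the factor itself, had 0.143 (rho 0.140, permutation adjusted p = 0.907) and 0.432 (rho 0.421, 0.139). Cyp46a1 had -0.178 and 0.0139 and Apoe -0.296 and -0.181, none of which passed. The lowest value was that of Srebf1 at 6 months (r = -0.442, rho -0.429, permutation adjusted p = 0.319). Libraries share their scaling over all genes, and depth and tissue composition can differ within a group.

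**Figure D5:**
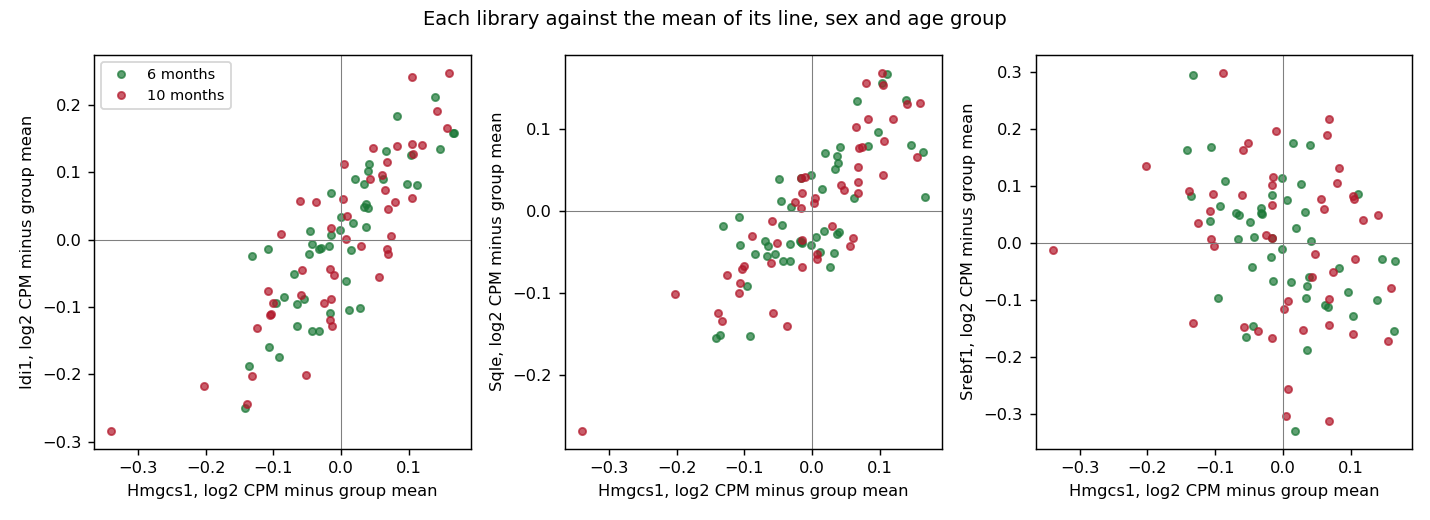
Deviation of each library from its group mean (log2 CPM) for Hmgcs1 against Idi1, Sqle and Srebf1, at 6 months (green) and 10 months (red). Idi1 and Sqle climb with Hmgcs1 at both ages (r between 0.745 and 0.868), and Srebf1 does not.

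Between males and females 1 of 30 members was called at 6 months, beside 2.37% of all genes, and 1 at 10 months, beside 3.49%. At an unadjusted p under 0.05 there were 9 and 5. Insig2 was higher in males at 6 months (40.8 ± 2.30 against 38.6 ± 1.48 CPM, n = 24 each; 0.079 ± 0.021, edgeR adjusted p = 0.0284), and it did not pass with no filter on low counts (adjusted p = 0.0574). Ebp, a sterol isomerase, was higher in males at 10 months (13.2 ± 0.943 against 12.2 ± 0.777 CPM; 0.11 ± 0.029, adjusted p = 0.0186). It did not pass with the L code as a factor (0.092, adjusted p = 0.187) or without the libraries that lack a D code (0.12, 0.0739). The value was higher in males for 24 and 26 of the 30 members at 6 and 10 months, beside 49.7% and 48.7% of all genes. The medians were 0.0429 and 0.0394, against -0.00037 and -0.0019 for all genes. Some members varied together within groups, so their signs are not separate observations.

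Genes around the pathway were counted in the same age comparison, in which 9.56% of all genes were higher at 10 months and 13.4% lower. These neighbouring genes, here and in the next paragraphs, were examined in the main fits only and under none of the alternatives. Among the members, the 16 calls of this comparison became 4 with the striatal level as a covariate and 2 in males alone. Of 16 fatty acid synthesis genes 5 were higher and 1 lower. Scd1, a desaturase, rose from 246 ± 22.5 to 280.2 ± 13.9 CPM (0.18 ± 0.035, edgeR adjusted p = 4.82e-05), Me1, which makes NADPH, rose by 0.099 ± 0.022 (0.000464), and Acss2, an acetyl-CoA synthetase, rose by 0.092 ± 0.027 (0.00796). Of 13 genes of sterol uptake, trafficking and esterification 4 were higher, among them Npc1, which releases cholesterol from lysosomes (0.12 ± 0.025, adjusted p = 9.13e-05), Nceh1, a cholesteryl ester hydrolase (0.10 ± 0.024, 0.000749), and Osbp (0.064 ± 0.018, 0.00460). Of 12 SREBP processing genes 2 were higher, Mbtps2, the site-2 protease (0.13 ± 0.026, adjusted p = 0.000123), and Sec23a (0.059 ± 0.022, 0.0428). None of 12 LXR, efflux and lipoprotein genes was called, and 1 of 12 genes of isoprenoid use was, Rce1, a protease of prenylated proteins (-0.12 ± 0.040, adjusted p = 0.0225).

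These neighbouring lists also held a few genes called along CAG length, beside 0.891% of all genes at 10 months and 1.78% at 6 months. At 10 months 3 of 16 fatty acid genes fell with CAG length, Fads1 (-0.14 ± 0.025 per 100 repeats, edgeR adjusted p = 0.00349) and Scd2 (-0.13 ± 0.026, 0.00761), both desaturases, and Elovl1, an elongase (-0.18 ± 0.043, 0.0373). Scarb1, a lipoprotein receptor, also fell (-0.13 ± 0.030, adjusted p = 0.0362), 1 of 13 in its list. The median slope of the 16 fatty acid genes was -0.0763, against -0.00019 for all genes. Myelin markers (17 genes, none at 0) summed to 3464 to 4465 CPM in Q140 at that age, 3743 to 5138 in Q92, 4591 to 5228 in Q50 and 4055 to 5600 in Q20, and their part in these slopes was not tested. At 6 months Elovl5 fell with CAG length (-0.098 ± 0.027, adjusted p = 0.0492).

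In single lines the neighbouring lists gave few calls. Of all genes, 7.83% were called in Q92 at 6 months and 4.35% in Q20 at 10 months. In Q140 the shares were 3.52% at 6 months and 1.20% at 10 months. In Q92 at 6 months Npc1 (0.089 ± 0.028, edgeR adjusted p = 0.0378) and Acss2 (0.099 ± 0.032, 0.0448) rose, and Erlin1, which takes part in Insig turnover (-0.17 ± 0.040, 0.00425), Acly, which makes cytosolic acetyl-CoA (-0.11 ± 0.032, 0.0244), and Osbpl2 (-0.066 ± 0.022, 0.0499) fell. In Q20 at 10 months Vldlr, an ApoE receptor, rose (0.20 ± 0.043, adjusted p = 0.0100) with Lipa, the lysosomal lipase (0.16 ± 0.041, 0.0282), while Coq2 (-0.12 ± 0.029, 0.0209), Dhdds (-0.094 ± 0.028, 0.0467), which use isoprenoids, and Thrsp (-0.24 ± 0.067, 0.0376) fell. In Q140 Elovl5 fell at 6 months (-0.11 ± 0.031, adjusted p = 0.0276), and Fads1 (-0.14 ± 0.024, 0.000585) and Thrsp (-0.25 ± 0.063, 0.0280) fell at 10 months. Vldlr and Thrsp also differed between the wild-type groups at 10 months (-0.13 ± 0.043, adjusted p = 0.0481, and 0.35 ± 0.067, 0.00187).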

How the data were processed

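Per the labels, total RNA of frozen cortex was enriched and made into Illumina libraries. For each gene the authors deposited an estimated count and an FPKM value. CASAVA 1.8.2 is named in the submitters' processing notes, and the sources used here do not give the aligner, counter, build or strandedness. Identifiers were paired with symbols for 37607 of 39179 genes. Estimated counts were rounded and tested with edgeR 4.0.16 in R 4.3.3 (filterByExpr with minimum count 10 and total 15, TMM, robust quasi-likelihood, Benjamini-Hochberg over all 17504 to 18187 genes tested, threshold 0.05), with sex as a covariate and all libraries of an age in 1 fit. Both ages shared 1 fit for age and interaction, relations with Hmgcs1 were adjusted over all genes tested, and the CAG slope used knock-in libraries only. Alternatives used DESeq2 1.42.0 and limma 3.58.1, the latter also on log2 FPKM plus 0.1 or 1 for genes of mean FPKM at least 0.5. The edgeR fits were tested on simulated data. FPKM served for levels between genes, and depth (30.3 to 41.1 M estimated counts per library) limits low genes most. Members and lists were chosen with earlier results of these data known. Named are members called (up to 8 of smallest p per comparison and direction), always Hmgcs1, Sqle, Srebf2, Cyp46a1 and Apoe, up to 3 called genes of smallest p per other list, and Htt; Acat2, Lbr and Nsdhl in the age comparison, and members not called such as Idi1, Insig1 and Mvd, were added after their values were seen. No 2 libraries of a group were alike (chi-square per degree of freedom 4.15 to 97.6).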

Additional observations from a re-analysis of the deposited data

Results flagged for a closer look

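In 22 of 207 checks of 4 libraries, over 9 members, 1 library stood apart from the other 3, where chance marks about 1 in 20. Values are log2 CPM, and each library is the highest or the lowest of its 4. For Hmgcs1 it was 8.075 in Q20 male replicate 3 at 6 months (lowest), 8.429 in Q50 female replicate 2 at 6 months (highest), 7.99 in Q92 male replicate 1 at 10 months (lowest), 8.257 in wild type caged with Q20 female replicate 3 at 6 months (highest) and 8.104 in wild type caged with Q50 male replicate 1 at 10 months (lowest). For Sqle it was 6.096 in Q140 female replicate 1 at 10 months (highest) and 6.029 in wild type caged with Q20 female replicate 3 at 6 months (highest). For Srebf2 it was 7.63 in Q140 male replicate 4 at 6 months (lowest) and 7.835 in Q20 female replicate 4 at 10 months (highest). For Cyp46a1 it was 7.267 in Q140 female replicate 4 at 10 months (highest) and 7.318 in Q20 female replicate 3 at 6 months (lowest). For Apoe it was 9.704 in Q140 female replicate 1 at 6 months (highest), 10.13 in Q50 female replicate 4 at 6 months (highest) and 9.764 in Q92 male replicate 3 at 6 months (highest). For Pmvk it was 5.083 in Q140 male replicate 2 at 6 months (highest), 4.785 in Q20 female replicate 4 at 6 months (highest) and 4.828 in Q20 male replicate 3 at 10 months (highest). For Abca1 it was 5.773 in wild type caged with Q20 female replicate 4 at 6 months (lowest) and 5.568 in wild type caged with Q50 female replicate 2 at 6 months (lowest). For Tm7sf2 it was 4.011 in Q50 male replicate 1 at 6 months (lowest), 3.965 in wild type caged with Q20 male replicate 3 at 6 months (lowest) and 4.257 in wild type caged with Q50 female replicate 4 at 6 months (highest). Both libraries of high mitochondrial share are among them for Apoe.

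The age difference departed from that of wild type in Q92 for 3 members by the interaction test. The interaction was -0.24 for Tm7sf2, 0.37 for Abca1 and -0.20 for Cyp46a1 (log2; edgeR adjusted p = 0.00225, 0.00239 and 0.000946). The 3 of 30 stand beside 9.63% of all genes called. None of the 3 was called in males alone or with the striatal level as a covariate, and Abca1 was also not called with the myelin level as a covariate. In the other alternatives of 15 each was called, but none of these used 1 wild-type group alone as the reference. In wild types caged with Q50 the mean log2 age changes of Tm7sf2, Abca1 and Cyp46a1 were -0.14, 0.13 and -0.17. These had the sign of the changes in Q92 (-0.29, 0.33 and -0.29) and in the other lines. In wild types caged with Q20 they were 0.04, -0.21 and 0.010.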

How the results depend on the processing

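The number of members called depended on the setting in the comparisons given next, and elsewhere it kept within 1.5 times. For Q92 at 6 months the 2 called became 1 with limma voom, 1 with limma on FPKM plus 0.1, 1 with limma on FPKM plus 1, 1 with L code in the model, 0 in females, 1 in males, 0 with the striatal covariate, 0 against wild types caged with Q50 alone and 1 with only the groups compared, and 1 to 3 with any 1 library left out. For Q140 at 6 months the 0 called became 1 without the 2 libraries over 13% mitochondrial counts and 1 with only the groups compared. For the sexes at 6 months the 1 called became 2 with DESeq2 size factors, 2 with DESeq2, 2 with limma voom and 0 with no filter, and 1 to 3 with any 1 library left out. For Q20 at 10 months the 3 called became 6 with DESeq2, 6 with limma voom, 1 with limma on FPKM plus 0.1, 1 with limma on FPKM plus 1, 1 with no filter, 6 with mean CPM of at least 5, 0 with L code in the model, 0 in females, 7 in males, 0 without libraries lacking a D code, 1 with the myelin covariate, 0 with the striatal covariate, 1 against both wild-type groups and 1 with only the groups compared, and 0 to 7 with any 1 library left out. For Q92 at 10 months the 2 called became 1 in females, 0 in males, 1 with the myelin covariate, 4 against wild types caged with Q20 alone, 0 against wild types caged with Q50 alone and 0 with only the groups compared, and 0 to 2 with any 1 library left out. For Q140 at 10 months the 0 called became 1 with limma voom, 1 in females and 3 against wild types caged with Q20 alone. For the wild-type groups at 10 months the 3 called became 5 with limma voom, 5 with limma on FPKM plus 0.1 and 5 with limma on FPKM plus 1, and 2 to 5 with any 1 library left out. For the sexes at 10 months the 1 called became 0 with L code in the model and 0 without libraries lacking a D code. For the age interaction of Q20 the 0 called became 3 with limma voom and 2 in males, and 0 to 2 with any 1 library left out. For the age interaction of Q92 the 3 called became 5 with L code in the model, 0 in males and 0 with the striatal covariate, and 3 to 5 with any 1 library left out. For the age interaction of Q140 the 0 called became 1 with DESeq2 and 1 without libraries lacking a D code, and 0 to 1 with any 1 library left out. For age in wild type the 16 called became 10 with limma on FPKM plus 0.1, 10 with limma on FPKM plus 1, 7 in females, 2 in males and 4 with the striatal covariate.

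Of 5711 values of named members under the alternatives, 149 had the opposite sign, 1 of them a value that had been called (Hmgcs1 in Q92 at 6 months), and none of the 149 passed the threshold. With L code in the model, the value was -0.030 for Srebf2 (Q20 at 6 months), -0.0050 for Sqle (Q20 at 6 months), -0.037 for Srebf2 (Q50 at 10 months) and -0.0045 for Cyp46a1 (Q50 at 10 months). Likewise, the value was -0.013 for Apoe (Q92 at 10 months) and 0.0026 for Cyp46a1 (the CAG slope at 6 months). In females, the value was -0.0079 for Hmgcs1 (Q20 at 6 months), 0.055 for Srebf2 (Q50 at 6 months), 0.024 for Hmgcs1 (Q20 at 10 months) and 0.072 for Sqle (Q20 at 10 months). Under it also, the value was 0.095 for Apoe (Q20 at 10 months), -0.026 for Srebf2 (Q50 at 10 months), 0.033 for Sqle (Q50 at 10 months) and -0.041 for Cyp46a1 (Q50 at 10 months). There, too, the value was -0.095 for Apoe (Q50 at 10 months), 0.034 for Apoe (Q140 at 10 months), -0.0071 for Sqle (the CAG slope at 6 months) and -0.065 for Sqle (the CAG slope at 10 months). Against both wild-type groups, the value was -0.0023 for Hmgcs1 (Q20 at 6 months), 0.034 for Apoe (Q20 at 10 months), -0.045 for Srebf2 (Q50 at 10 months) and -0.049 for Cyp46a1 (Q50 at 10 months). With this setting, the value was -0.018 for Apoe (Q50 at 10 months). With limma voom, the value was 0.020 for Apoe (Q20 at 6 months), 0.014 for Srebf2 (Q50 at 6 months), -0.0045 for Cyp46a1 (Q140 at 6 months) and -0.0051 for Srebf2 (Q50 at 10 months). There, too, the value was -0.022 for Apoe (Q92 at 10 months). With no filter, the value was 0.0037 for Srebf2 (Q50 at 6 months). With mean CPM of at least 5, the value was 0.0013 for Srebf2 (Q50 at 6 months). Without the 2 libraries over 13% mitochondrial counts, the value was 0.022 for Srebf2 (Q50 at 6 months) and -0.0056 for Apoe (Q50 at 6 months). Without libraries lacking a D code, the value was 0.012 for Srebf2 (Q50 at 6 months), -0.0062 for Srebf2 (Q50 at 10 months), 0.013 for Hmgcs1 (Q50 at 10 months) and 0.028 for Sqle (Q50 at 10 months). Likewise, the value was -0.0055 for Cyp46a1 (Q50 at 10 months) and -0.036 for Sqle (the CAG slope at 10 months). With the myelin covariate, the value was 0.018 for Srebf2 (Q50 at 6 months), -0.013 for Sqle (the CAG slope at 6 months), 0.023 for Cyp46a1 (the CAG slope at 6 months) and -0.040 for Sqle (the CAG slope at 10 months). With the striatal covariate, the value was 0.0092 for Srebf2 (Q50 at 6 months), -0.014 for Hmgcs1 (Q92 at 6 months), -0.029 for Sqle (Q92 at 6 months) and -0.089 for Hmgcs1 (Q140 at 6 months). There, too, the value was -0.036 for Sqle (Q140 at 6 months), -0.052 for Cyp46a1 (Q140 at 6 months), 0.020 for Hmgcs1 (Q20 at 10 months) and 0.033 for Sqle (Q20 at 10 months). Likewise, the value was -0.096 for Hmgcs1 (the CAG slope at 6 months), -0.068 for Sqle (the CAG slope at 6 months) and -0.032 for Sqle (the CAG slope at 10 months). With only the groups compared, the value was 0.0020 for Srebf2 (Q50 at 6 months). In males, the value was -0.014 for Cyp46a1 (Q50 at 6 months), -0.054 for Srebf2 (Q92 at 6 months), 0.033 for Sqle (Q92 at 10 months) and -0.087 for Apoe (Q92 at 10 months). There, too, the value was 0.0094 for Cyp46a1 (the CAG slope at 6 months) and 0.017 for Hmgcs1 (the CAG slope at 10 months). Against wild types caged with Q50 alone, the value was -0.013 for Cyp46a1 (Q140 at 6 months) and 0.011 for Srebf2 (Q140 at 10 months). Against wild types caged with Q20 alone, the value was 0.011 for Sqle (Q92 at 10 months) and -0.046 for Apoe (Q92 at 10 months). With limma on FPKM plus 0.1, the value was -7.78e-05 for Apoe (Q92 at 10 months). With limma on FPKM plus 1, the value was -7.55e-05 for Apoe (Q92 at 10 months). With any 1 library left out the range was -0.016 to 0.028 for Hmgcs1 (Q20 at 6 months), -0.025 to 0.027 for Apoe (Q20 at 6 months) and -0.021 to 0.027 for Srebf2 (Q50 at 6 months). It was -0.0024 to 0.085 for Apoe (Q50 at 6 months), -0.0054 to 0.019 for Cyp46a1 (Q140 at 6 months) and -0.081 to 0.019 for Apoe (Q20 at 10 months). It was -0.015 to 0.032 for Srebf2 (Q50 at 10 months), -0.060 to 0.0061 for Hmgcs1 (Q50 at 10 months) and -0.060 to 0.0063 for Sqle (Q50 at 10 months). It was -0.037 to 0.027 for Sqle (Q92 at 10 months), -0.046 to 0.050 for Apoe (Q92 at 10 months) and -0.0066 to 0.022 for Sqle (the CAG slope at 6 months). It was -0.022 to 0.0022 for Cyp46a1 (the CAG slope at 6 months) and -0.0046 to 0.026 for Sqle (the CAG slope at 10 months). The cause was not tested.

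On average same-numbered libraries did not deviate together (mean correlation -0.0017 against 0.0012 for other numbers). Single same-numbered pairs ranged from -0.68 to 0.60, and the mean cannot show whether the numbers pair libraries in some groups. With a replicate block 2 members were called in Q20 at 10 months in place of 3, where Cyp46a1 had -0.12 with adjusted p = 0.0512, and 2 in Q92 at 6 months, 3 in the age interaction of Q92 and 16 for age in wild type. The setting without libraries lacking a D code, and the myelin and striatal covariates in the age and interaction fits, were chosen after seeing the data. The standard errors of the members in the line comparisons (0.031 to 0.095 on the log2 scale) limit which differences could be called.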
